A study of Drosophila melanogaster with 12 samples.

Results

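The transcription units of at least 30 kb were taken from the annotation used in a study of nascent transcription and dosage compensation in male Drosophila S2 cells. They were chosen by 1 rule, a listed length of 30000 bp or more on the arms 2L, 2R, 3L, 3R, X and 4, which 664 of the 15848 units on these arms met (4.19%, exact binomial 95% interval 3.88 to 4.51%), out of 15991 units in the whole annotation. A transcription unit here is a stretch of 1 strand that holds a single gene or several overlapping genes merged into 1 region, and all coordinates are 1-based on the dm6 build. The rule used only the length, so length is a description below, and the other measures are counts and medians over annotated units.

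The study made 12 libraries of mNET-seq, an assay that pulls down RNA polymerase II and sequences the unfinished transcripts bound to it. They form 6 groups of 2 replicates. Total polymerase II and polymerase II phosphorylated on serine 5 of its C-terminal domain were each profiled after RNAi against a GST control, against msl1 or against mof. The design text gives 2 days of RNAi for the control and msl1 and 4 days for mof, without saying so per library. S2 is an established embryonic cell line, every group shares this 1 line, and RNAi lowers a gene's product without removing the gene. Coverage of these libraries was not analysed here, and the annotation carries a value for 0 of the 12, so the targeted genes, cell type markers, read depth and replicate error could not be checked and no RNAi groups are compared. Every interval below covers the spread over units only.

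A long unit in a fly is usually a gene with large introns, and polymerase II has to stay engaged through all of them before the transcript is finished. Large introns in flies hold enhancers, alternative promoters and, at times, whole other genes on either strand. The MSL complex, which contains MSL1 and the acetyltransferase MOF, binds the single male X and is known for raising transcription along the bodies of its genes.

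The 664 units ranged from 30011 to 1965857 bp, with a median of 48500 bp and quartiles of 37459.5 and 72858.5 bp. They took 45.6% of the summed length of all units on these arms. Of them, 85 were at least 100 kb long and 12 at least 200000 bp, and 320 lay on the plus strand and 344 on the minus strand. The cutoff falls inside a continuous range of lengths. The shortest members were CG43367 (30011 bp), ham (30033 bp), which encodes a transcription factor of sensory neurons, and NaCP60E (30064 bp), a sodium channel relative. Just outside lay Oaz (29983 bp), a zinc finger gene, Pli (29891 bp) and Mnt (29872 bp), which encodes an antagonist of Myc.

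The longest units of each arm were of very different kinds. On 3R, Myo81F, a myosin heavy chain relative, was the longest of all (3R:567076-2532932, plus strand, 1965857 bp). It was followed by Pzl, a relative of the mechanosensitive channel Piezo (3R:2554162-3263582, minus strand, 709421 bp), and by pum, a translational repressor (171340 bp). On 3L they were CG45782 (434041 bp), bru3, an RNA-binding protein gene of the Bruno family (281494 bp), and the SNARE gene Snap25 (225026 bp). On 2R they were CG17684 (396036 bp), CG45781 (379081 bp) and mbl, the muscleblind splicing factor (162828 bp). The transcripts of these 9 units ranged widely. There were 2 for Myo81F, 3 for Pzl and 8 for pum on 3R, 2 for CG45782, 16 for bru3 and 2 for Snap25 on 3L, and 2 for CG17684, 1 for CG45781 and 16 for mbl on 2R.

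On 2L the longest units were sick (162060 bp), the receptor tyrosine phosphatase gene Lar (145447 bp) and bru1 (138435 bp). On the X they were kirre, an immunoglobulin-family adhesion gene of myoblast fusion (X:2740384-3134532, plus strand, 394149 bp), the teneurin gene Ten-a (X:12043698-12335214, plus strand, 291517 bp) and the long noncoding gene CR44357 (X:7166451-7405797, minus strand, 239347 bp). The small chromosome 4 had 7 long units, led by bt, which encodes the muscle protein projectin (52075 bp), pan, the TCF factor of Wnt signalling (44945 bp), and the synaptic gene unc-13 (44508 bp).

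Long units were a larger share of the X than of any of the 4 large autosomal arms. They were 133 of 2399 units on the X (5.54%, 4.66 to 6.54%) against 524 of 13340 on 2L, 2R, 3L and 3R together (3.93%, 3.60 to 4.27%). The single arms gave 3.69% on 2L, 3.77% on 2R, 4.07% on 3L and 4.15% on 3R, and chromosome 4 gave 6.42% from its 7 units, with an interval of 2.62 to 12.8%. The X thus held 20.03% of the long units and 15.1% of all units. Long units filled 51.2% of the unit length of the X, between 41.4 and 47.3% on the large autosomal arms and 25.8% on chromosome 4. The 47.3% is that of 3R, where Myo81F alone took 1965857 bp of the 11.48 Mb in long units. No test of these differences was made.

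**Figure D1:**
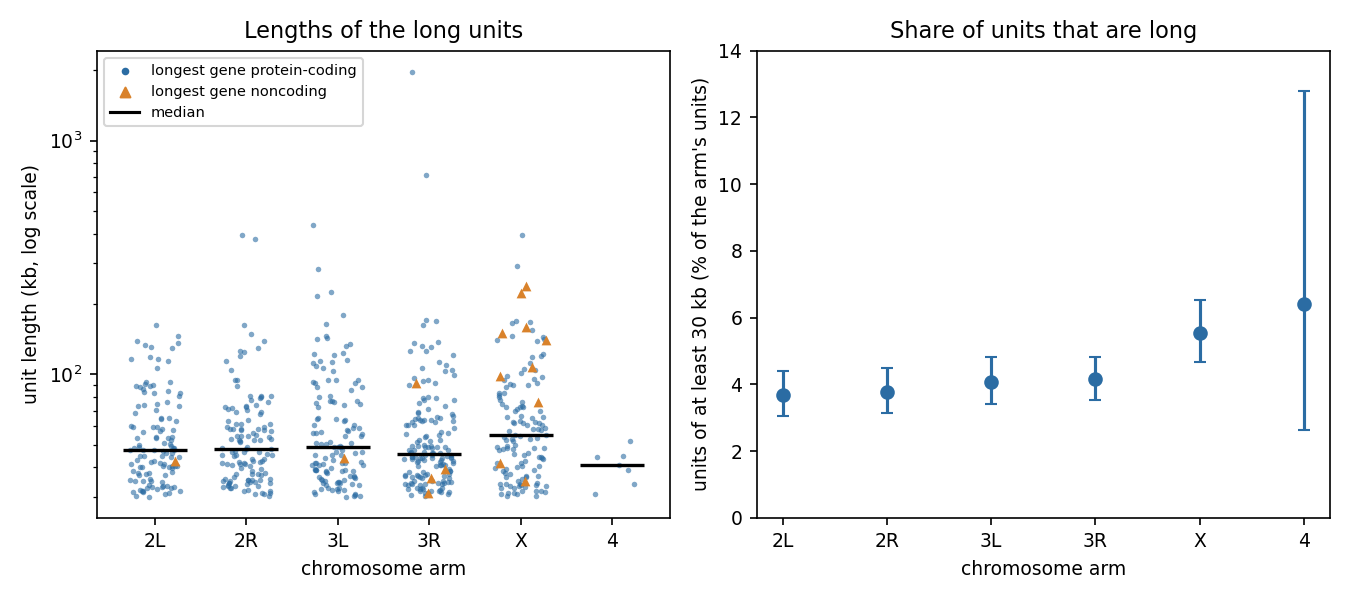
Left, length of each of the 664 long units in kb on a log axis by chromosome arm, with black lines at the arm medians and triangles for units whose longest gene is noncoding. Right, long units as a percentage of each arm's units with exact binomial 95% intervals, where the X sits at 5.54% and the 4 large autosomal arms between 3.69 and 4.15%.

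The long units of the X were also longer among themselves. Their median was 55324 bp, against 45626.5 to 49048 bp on the large autosomal arms and 40923 bp on chromosome 4. Units of at least 100 kb were 24 of the 133 on the X (18.0%), 21 of 127 on 3L (16.5%), 17 of 158 on 3R (10.8%), 12 of 117 on 2L (10.3%), 11 of 122 on 2R (9.02%) and 0 of 7 on chromosome 4. Counting only units with a protein-coding longest gene, the X had 18 of 123 (14.6%) and 3L 21 of 126 (16.7%), so the X no longer led. The share of units that lay on the X did not rise steadily with length. It was 12.9% below 1000 bp, 14.1% from 1000 to 3000 bp, 17.4% from 3000 to 10000 bp and 19.1% from 10000 to 30000 bp. Just above the cutoff, from 30000 to 50000 bp, it was lower, 16.3%, and it was 22.8% from 50000 to 100000 bp and 28.2% above that.

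Noncoding genes were among the longest units of the X. Of the 664 units, 16 had a longest gene that RefSeq lists as noncoding, and 10 of these were on the X (10 of 133 units, 7.52%, 3.66 to 13.4%, against 6 of 523 on the large autosomal arms, 1.15%, 0.422 to 2.48%). On the X they were CR44357 (239347 bp), CR32773 (223710 bp), flam (158841 bp), CR44999 (149629 bp), CR44997 (140359 bp), CR44833 (107223 bp), CR44894 (98035 bp), CR43836 (76084 bp), CR44779 (41625 bp) and CR44886 (35068 bp). Of these, flam is the flamenco locus, a source of piRNAs that silence transposons in the ovary. The autosomal ones were the bithorax complex RNAs iab-8 (92116 bp) and bxd (31065 bp) on 3R, with CR46006 (43950 bp), CR44909 (42551 bp), CR44320 (39451 bp) and CR31386 (36194 bp). Among units under 10000 bp the share with a noncoding longest gene was 18.5% on the X and 20.3% on the autosomal arms, the X being the lower of both there.

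The noncoding X units were not empty of coding genes. The 10 units held 23 protein-coding genes on their own strand and 26 in opposite-strand units inside them, against 3 and 1 for the 6 autosomal ones. In 7 of the 10, and in 0 of the 6, opposite-strand units covered at least 25% of the length. CR44999 (X:3373159-3522787, plus strand) began with Myc, the growth-promoting transcription factor, whose span of 18539 bp lies on the same strand. CR44357 held the protein-coding gene CG1677 (124709 bp), the autophagy gene Atg5 and unc-119 on its own strand. On the other strand it held brk, a repressor of Dpp targets. CR32773 held rb and Usf on its own strand and bi, a T-box gene of 72792 bp, on the other. Counts of units with a protein-coding longest gene leave out CR44357, although CG1677 alone is longer than 100 kb. Without units whose longest gene is noncoding, the X held 19.0% of the long units. Of units with a protein-coding longest gene, 6.12% were long on the X (123 of 2009, 5.11 to 7.26%) and 4.74% on the large autosomal arms (517 of 10904, 4.35 to 5.16%), and these intervals overlap.

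In most long units 1 gene ran the whole length. The longest gene spanned the whole unit in 644 of 664, and it reached 30000 bp on its own in 662 of the 663 whose longest gene could be matched to RefSeq. The exception was Sulf1, a sulfatase gene. The units held 1209 genes in all. A single gene made up 370 units, 174 held 2 genes, 71 held 3 and 49 held 4 or more. Several genes were held by 44.3% (40.5 to 48.1%) of long units, against 20.9% of units from 10000 bp to under 30000 bp, named middle units below, and 4.12% of short units, those under 10000 bp.

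The units with the most genes were hosts to clusters of small genes. SLO2, a potassium channel gene (2R:10322195-10416996, minus strand, 94802 bp), held 17 genes, 15 of them protein-coding. Its passengers included the chemoreceptor gene Ir47a (2982 bp) and short genes such as CG43172 and CG46305 (629 bp each), which share both ends with CG43200. Over all long units, 18 genes in 6 units shared both ends with another gene of the same unit, so counts of genes are slightly above counts of places. kirre held 13 genes and Sytbeta, a synaptotagmin gene (50283 bp), held 12, among them ind, a homeobox gene of the developing nervous system (1126 bp). Ten-a and CR44357 held 8 each, as did svp, a nuclear receptor gene (44049 bp).

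Of the 545 other genes on the strand of the longest gene, 527 were matched and 513 of those lay wholly inside it. Their median span was 762 bp. Most of the 312 protein-coding ones did not share the host's start: 285 (91.3%) began more than 1000 bp downstream of the unit's start and 247 more than 10000 bp, with a median distance of 26993.5 bp. CR44999 is an exception, since Myc begins at the unit's first base.

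On the other strand, 344 long units (51.8%, 47.9 to 55.7%) held at least 1 whole unit, against 25.7% of middle and 3.29% of short units. These 786 nested units were 44.5% of all 1768 nested units on these arms, and their median length was 1112.5 bp. Counted per 100 kb of host, nested units numbered 1.77 in long, 2.24 in middle and 1.58 in short hosts. Middle hosts had the most on 2R, 3L, 3R and the X. Long hosts had the most on 2L (2.54, 1.92 and 1.61) and on chromosome 4 (1.05, 0.892 and 0.755). The chromosome 4 values rest on only 3, 5 and 2 nested units, and the 3 in long hosts all lay in unc-13. Opposite-strand units covered 7.54% of the long units' bases, against 9.15% in middle and 13.7% in short units. This order did not hold on the X, where the cover was 16.3% in long, 11.9% in middle and 15.0% in short units. On the large autosomal arms long units were covered by 3.73% (3R) to 6.91% (2L). Of the 664, 191 held both an extra gene on their own strand and a nested unit, and 217 held neither.

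Flo2, which encodes flotillin (X:14839376-14933946, plus strand, 94571 bp), held the most nested units, 14, which with a unit overlapping its end covered 56.6% of it. Most are genes of a family of oxidoreductases, from CG9522 (2337 bp) and CG9514 (10940 bp) to CG9503 (4242 bp) and Eo, ecdysone oxidase (2045 bp). Ptp61F, a tyrosine phosphatase gene (3L:1342493-1475257, minus strand, 132765 bp), held 11, among them rho (5134 bp) and ru (a merged unit of 16810 bp), both rhomboid proteases, and a run of glutamate tRNA genes of 72 bp. Pde1c, a phosphodiesterase gene (2L:11814156-11928572, minus strand, 114417 bp), also held 11, with 3 seminal fluid protein genes (Sfp33A2, Sfp33A3 and Sfp33A4) and the maltase genes Mal-B1 and Mal-B2.

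Loci known from classical fly genetics lay inside long units on the other strand. kirre held 10 nested units. They included w, the eye colour transporter gene (5868 bp), and rst, the paralog and partner of kirre (23436 bp). CG32816 (X:316576-470726, minus strand, 154151 bp) held 10, among them y, the body pigment gene (4737 bp), and 4 genes of the achaete-scute complex. The 4 were ac (917 bp), sc (1438 bp), l(1)sc (1097 bp) and ase (2430 bp). On its own strand CG32816 carried Cyp4g1, a cytochrome P450 gene of cuticle hydrocarbon synthesis (2279 bp), which begins 1.391 kb from the unit's start. CG7029 on 3R (43130 bp) held 10 as well, and the ecdysone receptor gene EcR (81215 bp) held 9, with tRNA genes on both strands.

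The strand of the genes held inside differed by kind of gene. Of 1356 held genes, 545 (40.2%, 37.6 to 42.9%) lay on the host's strand and 811 on the other. CG14269, tRNA:Gln-TTG-2-1, CG44195 and CR45109 are counted on both sides, because their long units are nested in other long units. Protein-coding genes gave 312 and 536 (36.8% on the host's strand), long noncoding RNAs 116 and 177 (39.6%) and tRNA genes 25 and 39 (39.1%). Genes of several small RNAs lay the other way: miRNA genes gave 36 and 14 (72.0%, 57.5 to 83.8%) and snoRNA genes 24 and 2 (92.3%, 74.9 to 99.1%). The few snRNA genes gave 7 and 2 (77.8%), with a wide interval of 39.99 to 97.2%. Why the kinds differed was not tested. Of the genes RefSeq names antisense RNA, 5 lay on the host's strand and 33 on the other.

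The 36 same-strand miRNA genes were spread over 34 hosts. E2f1, a cell cycle transcription factor gene, carried mir-11 and mir-998, CASK carried mir-999 and mir-4969, hth carried mir-4944, bun carried mir-967, and the noncoding iab-8 carried mir-iab-8. The 24 snoRNA genes lay in 19 hosts, 4 of them in lola. The 14 opposite-strand miRNA genes were not independent of each other, since 6 of them (mir-959 to mir-964) lay in the cell surface gene DIP-theta (32270 bp). Nor were the tRNA genes: the 25 on the host's strand lay in 14 hosts, and runs of opposite-strand ones lay in Ptp61F and EcR. No miRNA sequence is shown.

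**Figure D2:**
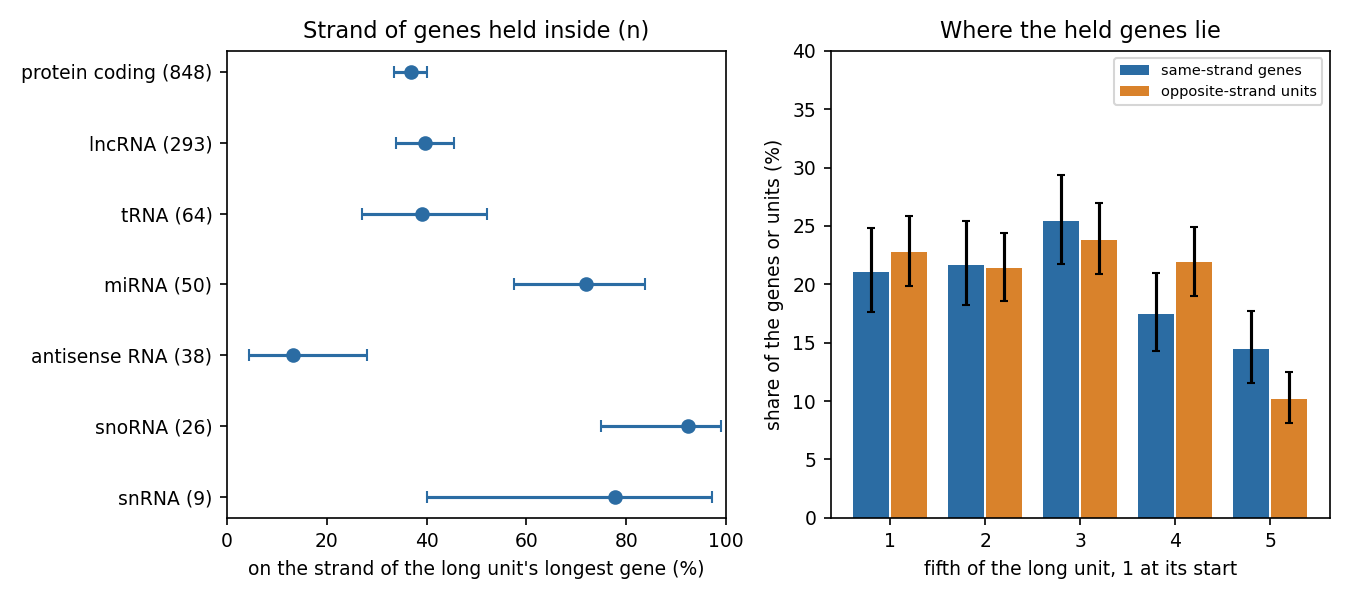
Left, share of the genes held inside long units that lie on the strand of the longest gene, by kind of gene with the number of genes, and exact binomial 95% intervals. Right, share of same-strand genes and of opposite-strand units in 5 equal stretches of the long unit from its start to its end, where the last stretch holds 14.4 and 10.2%.

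Held genes were spread over the hosts and were fewer in the last of 5 equal stretches. Opposite-strand units, placed by their midpoints, gave 22.8, 21.4, 23.8, 21.9 and 10.2% from the start to the end of the host. The last share has an interval of 8.15 to 12.5% and the one before it 19.0 to 24.9%. Same-strand genes gave 21.1, 21.6, 25.4, 17.5 and 14.4%, and the intervals of their last shares overlap (14.3 to 21.0% and 11.5 to 17.7%).

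Long units had a median of 5 annotated transcripts, with quartiles of 3 and 9, and together 4497 of the 34583 transcripts on these arms (13.0%). Of the 664, 29 had 1 transcript, 135 had 10 or more and 21 had 20 or more. Among units with 1 gene, which leaves merging aside, the median was 4 in long, 3 in middle and 1 in short units. It rose with length from 1 below 3000 bp to 5 from 50000 to 100000 bp and was 4 in the 26 single-gene units above that. Per 10 kb of single-gene units the order was the reverse, with 0.998 transcripts in long, 2.46 in middle and 7.55 in short units. On each arm the long single-gene median was 4 or 5, 5 on the X, 3L and chromosome 4 and 4 on 2L, 2R and 3R.

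Dscam1, a neuronal surface receptor known for its alternative exons (2R:7317924-7381899, minus strand, 63976 bp), had 75 transcripts, the most of any unit. The sodium channel gene para (X:16455027-16533096, minus strand, 78070 bp) had 61 in a unit of 2 genes. SLO2 had 37, spread over its 17 genes. Svil, an actin-binding protein gene (121572 bp), had 36 and lola, a BTB-domain transcription factor gene (61398 bp), had 31. At the other end, the longest units with 1 transcript were CG45781 (379081 bp), CR44997 (140359 bp), Parp, poly(ADP-ribose) polymerase (125704 bp), the surface receptor gene dpr21 (124513 bp) and the ionotropic receptor gene Ir41a (104437 bp).

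**Figure D3:**
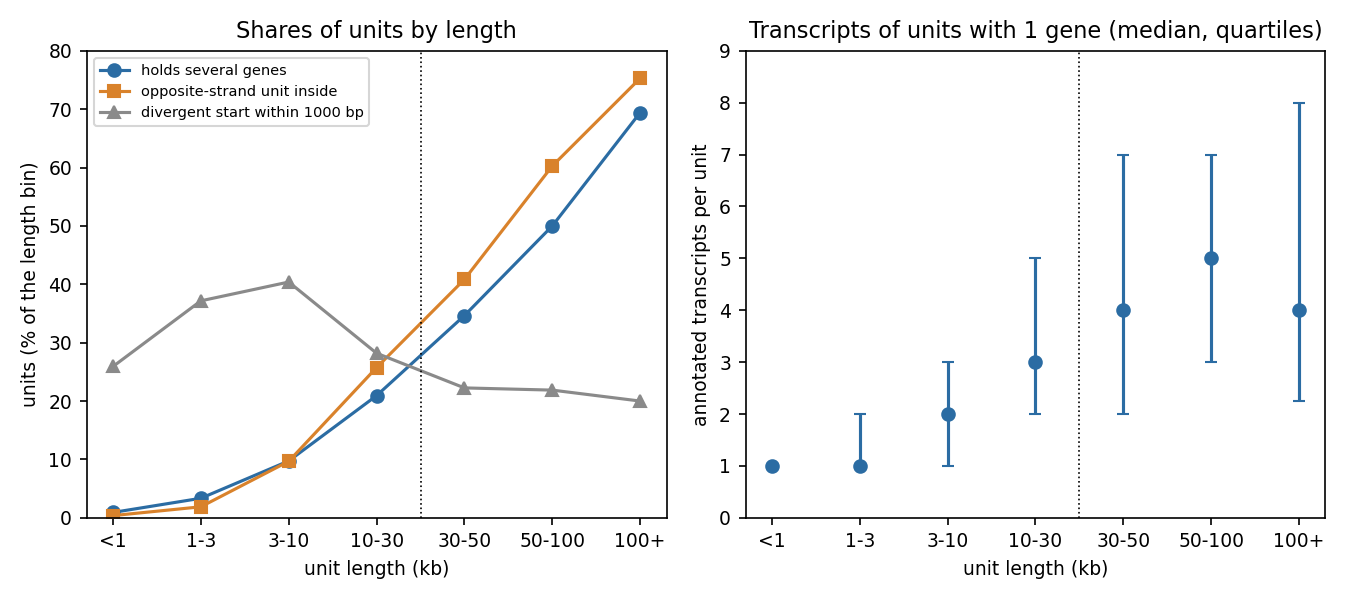
Left, percentage of units in each length bin (kb) that hold several genes, hold a whole opposite-strand unit or have a divergent start within 1000 bp, with a dotted line at 30 kb. Right, median and quartiles of annotated transcripts per unit among units with 1 gene. The shares with several genes and with nested units reach 69.4 and 75.3% in the last bin, whereas the divergent share is lower there than in the bins from 1 to 30 kb.

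Pooled over the arms, neighbours of long units were either overlapping or further away. The nearest unit overlapped or touched 62.0% of long units (58.2 to 65.8%), against 43.5% of middle and 38.4% of short ones, so the median gap of long units was 0 bp. Leaving overlapping units out, the median gap to the nearest unit was 561 bp in long, 384 bp in middle and 290 bp in short units. The median gap upstream of the start was 2082, 1021.5 and 553 bp in the same order, and the median downstream of the end was 1114, 655 and 929 bp. Downstream, the long median was below the short one on 2L (870 against 1007 bp) and 3L (764 against 1077 bp). It was above the short one on 2R, 3R, the X and chromosome 4. A divergent start, on the other strand and facing away within 1000 bp, lay at 21.8% (18.8 to 25.2%) of long, 28.2% (25.8 to 30.7%) of middle and 34.3% (33.6 to 35.1%) of short units. By length bin this share was highest at 40.4% from 3000 to 10000 bp and 25.9% below 1000 bp, so it rose and then fell with length.

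The widest gaps lay beside genes near the pericentromeric ends of the arms. scro, an NK2 homeobox gene (3L:24724162-24758036, plus strand, 33875 bp), was 169093 bp from its nearest unit. CG45781 (2R:326768-705848, plus strand) was 148965 bp away, MFS17, a transporter gene (2R:2494742-2565385, minus strand, 70644 bp), 119607 bp, CG17514 (3L:27967244-28012599, minus strand, 45356 bp) 108972 bp and dpr21 (2R:3066499-3191011, plus strand) 98446 bp.

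Gene lists of known function differed widely in how many members lay in a long unit. Of all 13846 protein-coding genes on these arms, 959 (6.93%) did, and 659 (4.76%) spanned at least 30000 bp themselves. Of 300 genes in 12 lists, 150 lay in a long unit, each in a unit of its own. The lists were drawn up with earlier results of these data known, and several name families known for large genes, so their counts describe the long units and support nothing more.

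The highest share was that of RNA-binding regulators, with 17 of 22. They included bru3, Rbp6 (179439 bp), pum, heph (168534 bp, 25 transcripts) and mbl, whereas elav (13992 bp), the neuronal marker, and Sxl (23504 bp), the sex determination switch, were shorter. Cell adhesion and axon guidance genes followed with 33 of 45, among them the cadherin CadN (131288 bp), the connectin gene Con (142276 bp), the semaphorin Sema1a (129895 bp) and Ten-m (114820 bp). All 4 neuroligin genes of the list (Nlg1 to Nlg4) were members, from Nlg2 (31757 bp) to Nlg3 (69154 bp). Giant muscle and cytoskeleton proteins had 10 of 15, led by dpy (136839 bp), a cuticle attachment protein, Msp300 (106126 bp), a nesprin, and shot (77874 bp), a spectraplakin.

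Ion channel genes had 12 of 20, and 7 of these 12 were on the X. They were the potassium channel genes Sh (138941 bp), SK (64903 bp) and eag (54513 bp), the calcium channel genes Ca-alpha1T (88399 bp) and cac (53808 bp), para, and the potassium channel subunit gene Hk (30139 bp). Of the 20 list genes 8 are on the X, and the one that was not long is na (11050 bp), a leak channel. Cyclic nucleotide and calcium signalling genes had 12 of 21, led by the cAMP phosphodiesterase gene dnc (167328 bp) and the diacylglycerol kinase gene rdgA (122409 bp), both on the X. All 4 X genes of that list were long, the others being Pde9 (111765 bp) and rut (38596 bp), an adenylyl cyclase gene. In the other lists the X genes gave 6 of 7 for adhesion and guidance, 4 of 5 for patterning and neural factors, 3 of 5 for dpr and DIP proteins, 2 of 4 for RNA-binding regulators, 2 of 6 for neurotransmitter receptors and 1 of 2 for nuclear receptors. They gave 0 of 1 for giant proteins, 0 of 1 for heterochromatic genes and 0 of 5 for each of the MSL and the polymerase II lists. As whole lists, adhesion and guidance gave 33 of 45, patterning and neural factors 20 of 42 and dpr and DIP proteins 15 of 30. RNA-binding regulators gave 17 of 22, neurotransmitter receptors 14 of 36 and nuclear receptors 8 of 21. The X counts are small, and whether X members were long more often than the rest of their lists was not tested.

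The dpr and DIP surface proteins, which pair with each other at synapses, had 15 of 30, from dpr6 (164710 bp) to DIP-theta. Patterning and neural transcription factors had 20 of 42, among them the homeobox genes hth (132008 bp), Antp (102976 bp) and Ubx (77804 bp) and the zinc finger genes mamo (144412 bp) and fru (131314 bp). Neurotransmitter receptors had 14 of 36, led by nAChRalpha6 (92934 bp), and nuclear receptors 8 of 21, led by the ecdysone-induced Eip75B (113744 bp). Genes of the heterochromatin had 9 of 16, from Myo81F to uex (49141 bp), with RpL15 (1191 bp), a ribosomal protein gene, at the other end.

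No gene of the machinery that the study perturbed or captured was long. The MSL complex and its partners had 0 of 15 genes in long units, with a median of 3895 bp and Sxl as the longest, and mof spanned 3014 bp and msl-1 5081 bp. Genes of pausing, elongation and polymerase II subunits had 0 of 18, with a median of 4326.5 bp, the longest being Trl, the GAGA factor (13916 bp). These counts allow shares of up to 21.8 and 18.5% (exact binomial 95% intervals), which include the 6.93% of all protein-coding genes, so a count of 0 is not a result about these lists.

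**Figure D4:**
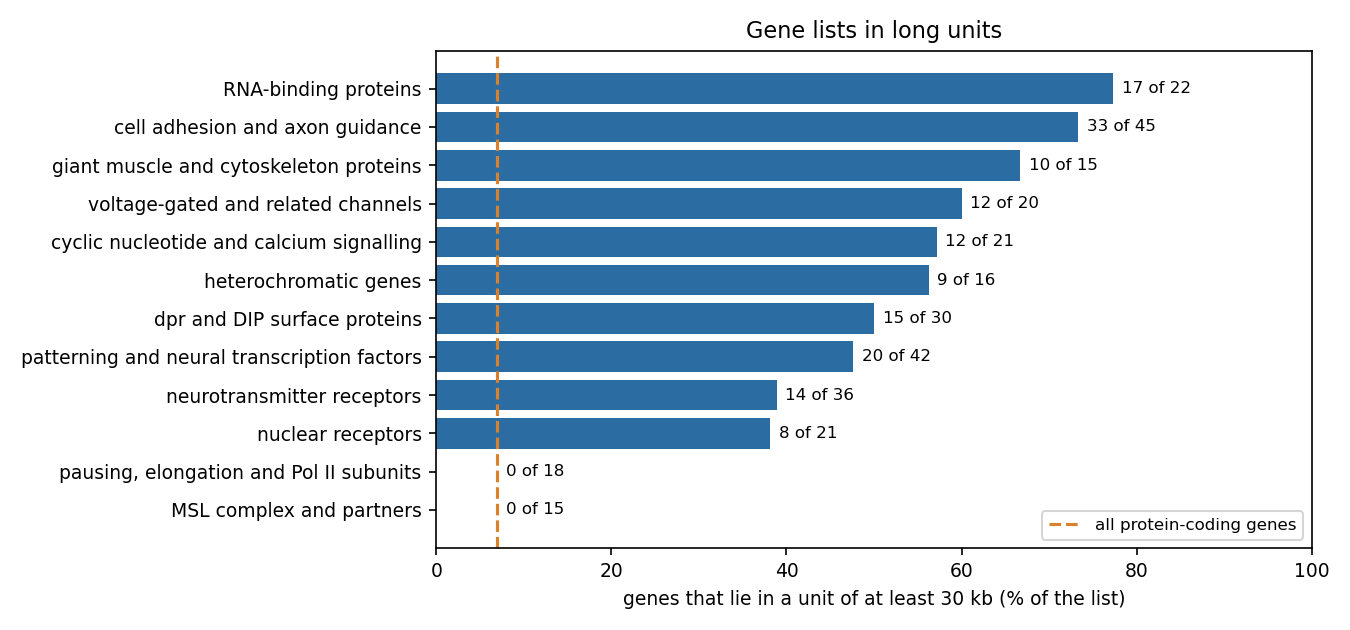
Percentage of each gene list that lies in a unit of at least 30 kb, with counts at the bars and a dashed line at the 6.93% of all protein-coding genes. RNA-binding regulators reach 17 of 22, and the MSL and polymerase II lists stay at 0.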

How the data were processed

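The study measured nascent RNA in 12 libraries, which were placed in groups by their titles and not analysed here. The 1 deposited file analysed is the authors' annotation of transcription units, whose start and end columns hold positions in bp (1-based, dm6). The annotation holds no read count, signal or score. Per the file header it was written with rtracklayer 1.48.0, and the sources used here do not give the way genes were merged. The submitters' processing notes name cutadapt 2.8, STAR 2.7.4a, SAMtools 1.20, DESeq and DESeq2, without roles.

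Genes were matched to the RefSeq table of Release 6 by symbol (14056) or by locus tag or synonym (3540), which left 102 of 17698 unmatched. The symbol of 1 list gene was changed to the name the annotation uses, dpy. The unit's longest gene is that with the largest RefSeq span, transcripts are the FlyBase transcript IDs listed per unit, and a nested unit lies wholly inside a unit of the other strand. Intervals are exact binomial 95% intervals. Gaps to the nearest unit, overlaps, cover, nesting and divergent starts were tested on simulated units (Python 3.11.15, pandas 2.3.3, SciPy 1.17.1). Upstream and downstream gaps, gaps without overlapping units and the overlap of 100 bp were not tested in this way. No test across samples or features was made.

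The members, lists and measures were chosen with earlier results of these data known. Genes named are the 3 longest units of each arm, the 3 on either side of the cutoff, the 5 with the most genes, transcripts, nested units and gap, and the long units of each list, longest first, with others chosen after their values were seen. Alternatives were a minimum of 20000 or 50000 bp, other unit sets, overlaps of 1 or 100 bp and distances of 500 or 2000 bp. Promoter motifs and protein lengths were planned and not run, since no sequences were used here.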

Additional observations from a re-analysis of the deposited data

How the results depend on the processing

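No paired analysis was possible because no value of any library was used. With a minimum of 20000 and of 50000 bp in place of 30000 bp, long units were 6.39 and 1.95% of all units, 38.4 and 55.3% of them held several genes, and 45.7 and 64.4% held a nested unit. At 50000 bp the X share was 24.3% and the median 6 transcripts. Counting only protein-coding genes, 25.9% held several. The median was 4 transcripts in units of 1 gene and 3 per gene. Any opposite-strand overlap of at least 1 bp was found in 61.7% and of at least 100 bp in 58.4%. The median gap was 2046 bp to the nearest unit of the same strand and 561 bp without overlapping units. A divergent start lay within 500 bp of 12.5% and within 2000 bp of 30.4%. The other planned settings, and the X share and the share of long X units of at least 100 kb without noncoding hosts (both added after seeing the data), stayed within the main value's 95% interval, although the second put 3L above the X. The unit annotation limits all of this: a longer or shorter annotated transcript moves a unit across the cutoff, and merged genes cannot be told apart within a unit. Promoter motifs and protein lengths were not run.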

Other observations

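Long units also overlapped each other on opposite strands. There were 21 such pairs among 40 of the units, 12 of them on the X, and in 8 pairs, 4 on the X, the shorter unit lay wholly inside the longer. br, an ecdysone-response transcription factor gene of 89738 bp, lay inside Mur2B, a mucin-related gene of 145744 bp. bi (72792 bp) lay inside CR32773, Ank2, a neuronal ankyrin gene (63007 bp), inside CG32373 (108576 bp), and CG12535 (61000 bp) inside CR44999. On the autosomes 2mit (33737 bp) lay inside timeout (75226 bp) and CG42741 (31866 bp) inside twi (62952 bp), the unit of a mesoderm transcription factor gene. The largest overlap without nesting was that of CG9650 and CR44357, 75482 bp. In 30 long units the other strand held units over at least 50% of the length.

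The number of long units per window of 1000000 bp varied along the arms, and no test of evenness was made. Over 137 windows that hold a unit start, the median was 5 long units, with quartiles of 3 and 6. The 5 windows with none held between 2 and 29 units of any length. The highest count was 13, on the X from 10000001 to 11000000, among them Hk, Imp, an mRNA-binding protein gene, and Cht6, a chitinase gene. The next, on the X from 1000001 to 2000000, held 11, with futsch, a microtubule-associated protein gene, br and Hr4. These are the highest by count only. As a share of the window's units the 13 of 94 on the X (13.8%) lay below, for example, 10 of 53 on the X from 3000001 to 4000000 (18.9%) and below 3 of 4 on 2R from 2000001 to 3000000.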
